A study of Mus musculus with 12 samples.

Results

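The 31 genes described here make, store, take up or burn glucose in the liver, or carry the signals of insulin and glucagon to the genes that do. They are named genes, with no threshold on their values: 4 gluconeogenic enzymes, 7 enzymes and targeting subunits of glycogen, 6 genes of glucose uptake, glycolysis and fructose use, 2 pyruvate dehydrogenase kinases, 7 genes of insulin signalling and 5 of glucagon and cAMP signalling. Their RNA was read from the deposited FPKM table (fragments scaled by transcript length and by the mapped fragments of the mouse), which held 24071 genes once transcripts were summed per gene, and the 31 members took up 41 of its transcripts. A gene was tested when its FPKM reached 1 in at least 2 of the 6 mice, which 9769 genes did, among them 30 members. Foxo3 did not, and 0 of the 30 reached that level in the mice of 1 group only.

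All mice were male C57BL/6J wild-type animals, and liver was taken from 2 mice of each of 3 groups. Control mice ate standard chow for 28 weeks and had no surgery. Sham and VSG mice were started at 8 weeks of age on a 60 kcal% saturated high-fat diet, fed for 14 weeks before and 14 weeks after surgery apart from a short liquid diet during recovery. VSG (vertical sleeve gastrectomy) removes most of the stomach and leaves a tube, and the sham procedure only pressed the stomach with forceps. Sham therefore differs from Control in diet and in surgery together, while VSG and Sham share the diet. Open chromatin was profiled in the same livers by FAIRE-seq (Formaldehyde Isolation of Regulatory Elements), which recovers DNA that is free of nucleosomes. Feeding state and hour at collection are not given in the sources used here.

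Between meals the liver releases glucose, first from glycogen and then from new synthesis out of lactate, glycerol and amino acids. Glucagon acts through its receptor, cAMP and the factor Creb1 to raise transcription of G6pc and Pck1. Insulin acts through its receptor, the Irs adaptors, phosphoinositide 3-kinase and Akt2 to keep the FOXO factors out of the nucleus, and it favours storage as glycogen.

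The 6 RNA profiles correlated between 0.851 and 0.919 (Pearson, log2(FPKM + 1), over genes tested, which are not independent replicates). Genes whose FPKM differed at least 2-fold between the 2 mice of a group made up 16.2% for the Control pair, 30.6% for Sham and 24.6% for VSG. FPKM tables hold no read totals. The commonest ratio between low values of single-isoform transcripts put the other mice at 0.674 to 1.57 times the depth of Control mouse 1, with 222 to 294 of 2228 to 2589 transcripts at that ratio. An FPKM of 0 can be a failed estimate: 684 genes tested were listed at 0 in some mouse and at 5 or more in another, and Apob and Hnf4a, which every hepatocyte uses, were listed at 0 in Sham mouse 1 alone. The 4 members listed at 0 in any mouse, Insr, Irs2, Foxo3 and Ppargc1a, are therefore given by mouse with no mean FPKM, while Insr, Irs2 and Ppargc1a stayed in the fits, counts and medians below with their values as listed.

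The livers carried hepatocyte markers at high levels, with the 9 of 12 markers analysed here summing to 26708 and 23542 FPKM in Control, 23444 and 20443 in Sham and 26238 and 22746 in VSG mice. Gene by gene, the median log2 change of these 9 markers was -0.991 in Sham against Control, with 7 lower and 2 higher. In VSG against Sham it was 0.807, with 7 higher and 2 lower. The 30 glucose genes tested had medians of -0.264 and 0.354, so their direction was shared by these hepatocyte markers. The 9 include Apob and Hnf4a, with their listed 0 in Sham mouse 1. Marker sums of several other cell types differed by group. The 9 stellate cell markers summed to 101 and 86.7 FPKM in Control, 24.8 and 36.1 in Sham and 81.9 and 124 in VSG mice. The 9 sinusoidal endothelial markers summed to 55.1 and 24.9, 13.3 and 9.04, and 41.0 and 36.6 FPKM in the same order. The 11 Kupffer cell markers summed to 52.9 and 35.0, 136 and 124, and 104 and 330 FPKM. Sums ranged from 31.1 to 186 FPKM for 8 cholangiocyte markers and from 5.74 to 47.2 for 9 neutrophil markers. Pancreatic acinar, adipocyte and skeletal muscle markers summed to at most 4.62, 20.5 and 2.70 FPKM in any mouse, and the 5 islet hormones were listed at 0 in every mouse. In whole liver, fewer cells of a type and less RNA per cell cannot be told apart, and the part of these markers in the results on glucose genes was not tested.

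The first question of the design is what the high-fat diet with sham surgery changed, and the second is what sleeve gastrectomy changed on the same diet. No member passed an adjusted p of 0.1 in the limma fit: 0 of 30 in Sham against Control, where 0.307% of all genes tested passed, 0 of 30 in VSG against Sham (0.0512%) and 0 of 30 in VSG against Control (0.287%). At an unadjusted p under 0.05 the fit held 5 members in Sham against Control, against 11% of all genes tested, 4 in VSG against Sham (4.86%) and 4 in VSG against Control (9.58%). As shares of the 30 members these were 16.7%, 13.3% and 13.3%. Without VSG mouse 2 the count for VSG against Sham was 2, without Control mouse 2 it was 2 for both comparisons with Control, and without Control mouse 1 it was 3 for Sham against Control. VSG against Sham and Sham against Control share the Sham mice, so their opposite signs are not independent of each other.

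The mean log2 level was lower in Sham than in Control livers for 22 of 30 members (73.3%, against 47.3% of all genes tested). It was higher in VSG than in Sham livers for 20 (66.7%, against 59.8%). Both Sham mice lay below both Control mice for 11 of 30 members, against 20.6% of all genes tested, and above them for 3, against 25.4%. Both VSG mice lay above both Sham mice for 12 members, against 18.6%, and below them for 0, against 9.79%. Compared with Control, both VSG mice were higher for 7 members (33.8% of all genes) and lower for 6 (14.9%). The median log2 change of the 30 members was -0.264 in Sham against Control, 0.354 in VSG against Sham and 0.110 in VSG against Control. Over all genes tested these medians were 0.0341, 0.0822 and 0.125. Scaling each mouse by its median ratio took the shift of all genes in VSG against Control to -0.00212 and that of the members to -0.0481, so the members' sign against Control depends on the scaling.

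**Figure D1:**
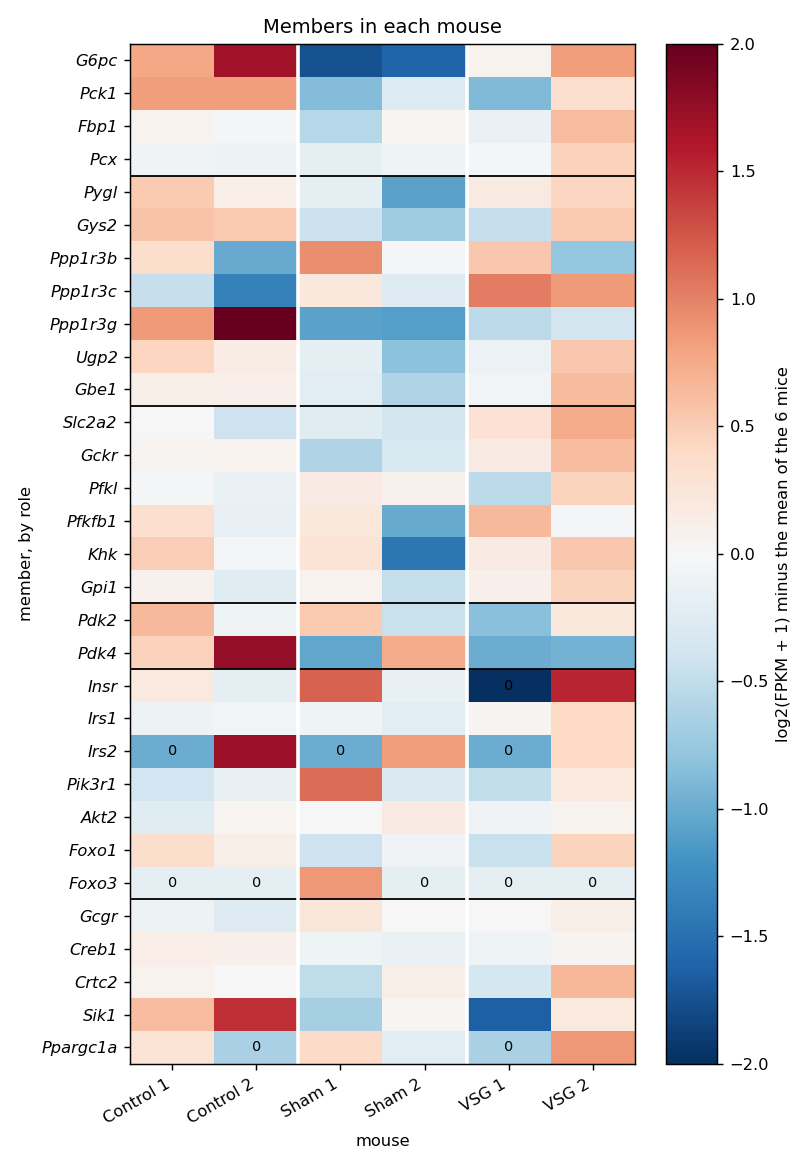
Level of each of the 31 members in each mouse, as log2(FPKM + 1) minus the mean of the 6 mice, with colours limited to 2 log2 units to each side, members ordered by role and a 0 printed where the table lists 0. G6pc, Pck1, Gys2 and Ppp1r3g are blue in both Sham mice, and VSG mouse 2 is redder than VSG mouse 1 in 27 of 30 tested members.

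The 2 VSG mice differed from each other over this set. VSG mouse 2 lay above VSG mouse 1 for 27 of the 30 members and below it for 3, with a median difference of 0.56 on the log2(FPKM + 1) scale, while over all genes tested the median difference was 0.0273. The exceptions were Ppp1r3b, Ppp1r3c and Pfkfb1. In Control mice, 21 members were higher in mouse 1 and 9 in mouse 2, and in Sham mice 19 and 11. The members' median change in VSG against Sham was therefore 0.712, with 25 of 30 members higher, when VSG mouse 1 was left out, and 0.0998, with 17 higher, when VSG mouse 2 was. Against Control it was 0.271 without VSG mouse 1, -0.217 without VSG mouse 2 and -0.0755 without Control mouse 2. In Sham against Control it was -0.155 without Sham mouse 2.

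The gluconeogenic enzymes held the member with the smallest p of the whole set. G6pc, the catalytic subunit of glucose-6-phosphatase, which frees glucose for export, stood at 144 and 272 FPKM in Control, 24.3 and 27.0 in Sham and 87.8 and 150 in VSG mice. Both Sham mice lay below every other mouse, and Control and VSG mice overlapped. The Control mean was 8.11 times and the VSG mean 4.63 times the Sham mean. On the log2(FPKM + 1) scale the change was -2.90 ± 0.42 (SE, n = 2 a group) in Sham against Control, with a limma adjusted p of 0.155 that ran from 0.145 to 0.563 over the alternatives. In VSG against Sham it was 2.12 ± 0.42, with a limma adjusted p of 0.609 and a range from 0.323 to 0.830.

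Pck1, the cytosolic phosphoenolpyruvate carboxykinase that commits carbon to glucose synthesis, was the most abundant member. It stood at 1490 and 1485 FPKM in Control, 454 and 688 in Sham and 452 and 1052 in VSG mice. Both groups on the high-fat diet lay below Control, and VSG mouse 1 matched the lower Sham mouse. Its change was -1.41 ± 0.49 in Sham against Control (limma adjusted p = 0.418) and -1.11 ± 0.49 in VSG against Control (0.576).

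Fbp1, fructose-1,6-bisphosphatase, stood at 518 and 481 FPKM in Control, 331 and 507 in Sham and 446 and 755 in VSG mice, and its groups overlapped in every comparison. Pcx, the mitochondrial pyruvate carboxylase, stood at 110 and 109, 102.2 and 109, and 115 and 160 FPKM. Both VSG mice were higher than all others for Pcx, by 0.31 ± 0.25 log2 against Control (limma adjusted p = 0.737). That sum combines 2 isoforms between which the estimate shifted from mouse to mouse, and the leading isoform alone gave -0.32. The median change of the 4 enzymes was -0.85 in Sham against Control and 0.43 in VSG against Sham.

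The start sites of both leading enzymes lay in a FAIRE peak in all 3 groups. Promoters from 250 bases before to 50 after the start were taken from RefSeq (GRCm38.p6), in which 26 of the 31 members had an entry, with 36 promoters. They were searched on both strands for the cAMP response element TGACGTCA, its core motif TGACG, which the full element contains, the FOXO site TGTTTAC and the E-box CACGTG. The 2 sequences are shown because G6pc and Pck1 are the textbook targets of glucagon and insulin, with capitals marking a core motif or an E-box.
G6pc: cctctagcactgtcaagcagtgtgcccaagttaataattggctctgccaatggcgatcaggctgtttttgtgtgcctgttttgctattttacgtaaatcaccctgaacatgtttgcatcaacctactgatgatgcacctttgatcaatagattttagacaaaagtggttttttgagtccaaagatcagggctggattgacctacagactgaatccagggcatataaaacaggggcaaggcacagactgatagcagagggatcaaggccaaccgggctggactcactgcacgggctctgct
Pck1: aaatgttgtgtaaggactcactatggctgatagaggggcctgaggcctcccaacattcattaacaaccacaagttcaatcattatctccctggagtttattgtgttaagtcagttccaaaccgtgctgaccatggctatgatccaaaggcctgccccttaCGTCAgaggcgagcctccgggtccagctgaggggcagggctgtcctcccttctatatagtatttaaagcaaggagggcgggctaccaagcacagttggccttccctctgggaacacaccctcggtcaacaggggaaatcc
The G6pc promoter is at chr11:101367466-101367765 and the Pck1 promoter at chr2:173152823-173153122, both on the plus strand. Pck1 carried a core motif, read as CGTCA, whose first base is 90 bases before the start. None of the 4 motifs was found in these letters of G6pc, which says nothing of the factors. Core motifs were present in 11 of the 36 member promoters and in 20.8% of 32851 promoters, and E-boxes in 6 and in 7.15%. The full element was present in 0 of 36 and in 1.79%, and the FOXO site in 0 and in 3.65%.

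**Figure D2:**
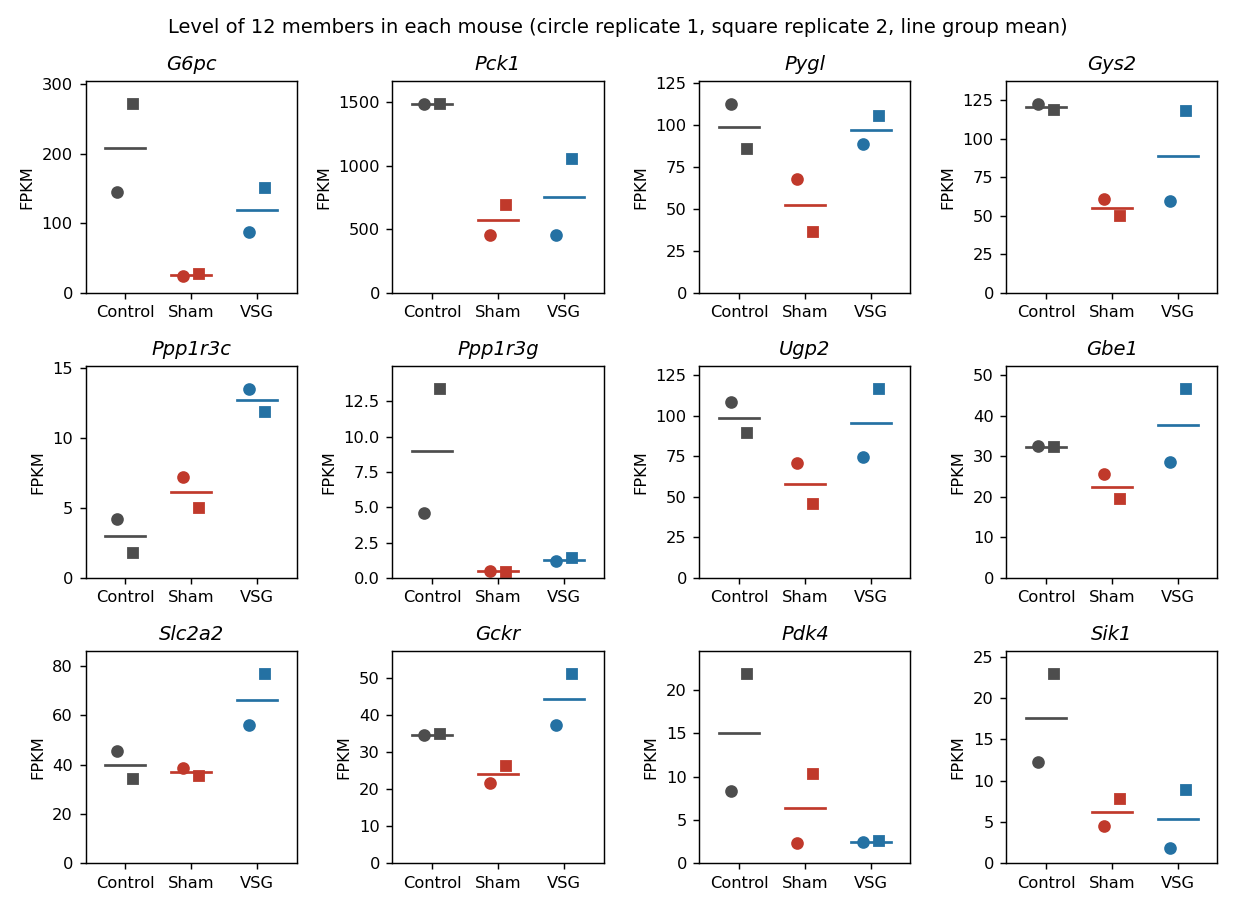
FPKM of 12 members in each mouse on linear axes that start at 0, with circles for replicate 1, squares for replicate 2 and lines for group means. Sham mice were lowest for G6pc, Pygl, Gckr, Ugp2 and Gbe1, Ppp1r3c was lowest in Control and highest in VSG mice, and Ppp1r3g was near 0 outside Control.

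The glycogen genes had changes of both signs, with the largest in the targeting subunits. Ppp1r3c, Ppp1r3b and Ppp1r3g code for subunits that bring protein phosphatase 1 to glycogen, where it activates glycogen synthase. Ppp1r3c stood at 4.21 and 1.80 FPKM in Control, 7.24 and 4.96 in Sham and 13.5 and 11.9 in VSG mice. The 3 groups did not overlap, and the VSG mean was 4.23 times the Control mean. Its change was 1.84 ± 0.38 in VSG against Control (limma adjusted p = 0.332, from 0.257 to 0.883 over the alternatives) and 0.88 ± 0.38 in Sham against Control (0.490).

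Ppp1r3g was highest in Control mice. It stood at 4.61 and 13.4 FPKM in Control, 0.471 and 0.444 in Sham and 1.16 and 1.42 in VSG mice. The groups did not overlap, the Control mice themselves differed by more than the Sham and VSG mice did, and the Control mean was 19.7 times the Sham mean. Its change was -2.62 ± 0.48 in Sham against Control (limma adjusted p = 0.213) and -1.97 ± 0.48 in VSG against Control (0.363), on a log2(FPKM + 1) scale that understates changes of genes this low. Ppp1r3b stood at 26.8 and 9.80, 40.5 and 20.3, and 30.5 and 11.7 FPKM. All 3 groups overlapped for Ppp1r3b, with replicate 1 above replicate 2 in each, and its changes were 0.78 ± 0.69 in Sham against Control and -0.57 ± 0.69 in VSG against Sham (limma adjusted p = 0.697 and 0.964).

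The 4 other glycogen members, all enzymes, had their lowest mean in Sham mice. Pygl, the liver glycogen phosphorylase that releases glucose from glycogen, stood at 113 and 85.4 FPKM in Control, 68.0 and 36.4 in Sham and 88.7 and 105 in VSG mice. Both Sham mice were lower than all other mice, and its change in VSG against Sham was 0.94 ± 0.37 (limma adjusted p = 0.942). Gys2, the liver glycogen synthase, stood at 123 and 118 FPKM in Control, 60.6 and 49.8 in Sham and 59.6 and 118 in VSG mice. Its Sham mice lay below Control by -1.12 ± 0.37 (limma adjusted p = 0.407), and its VSG mice spanned the range from Sham to Control.

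Ugp2, which makes the UDP-glucose that glycogen synthase uses, stood at 109 and 89.4, 70.7 and 45.3, and 74.3 and 117 FPKM, as the sum of 2 isoforms. Gbe1, the branching enzyme, stood at 32.5 and 32.2, 25.6 and 19.4, and 28.7 and 46.7 FPKM. For both, the Sham mice lay below the Control and the VSG mice. Over the 7 glycogen members, 5 were lower in both Sham mice than in both Control mice, against 20.6% of all genes tested. Both VSG mice were higher than both Sham mice for 5 of the 7, against 18.6%. The median changes of the 7 were -0.79 in Sham against Control, 0.69 in VSG against Sham and -0.022 in VSG against Control. For all genes tested these medians were 0.0341, 0.0822 and 0.125. Both Sham mice also had the lowest sums of the stellate cell and sinusoidal endothelial markers above, whose part in these values was not tested.

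The promoters of the 3 glycogen members with the smallest p in any comparison and a RefSeq entry are shown, again with core motifs and E-boxes in capitals.
Ppp1r3c: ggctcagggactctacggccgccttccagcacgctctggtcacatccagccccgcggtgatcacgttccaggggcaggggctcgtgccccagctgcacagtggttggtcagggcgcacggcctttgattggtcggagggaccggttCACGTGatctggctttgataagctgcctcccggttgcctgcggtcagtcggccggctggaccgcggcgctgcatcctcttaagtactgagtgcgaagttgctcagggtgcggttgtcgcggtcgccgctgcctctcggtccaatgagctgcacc
Ppp1r3g: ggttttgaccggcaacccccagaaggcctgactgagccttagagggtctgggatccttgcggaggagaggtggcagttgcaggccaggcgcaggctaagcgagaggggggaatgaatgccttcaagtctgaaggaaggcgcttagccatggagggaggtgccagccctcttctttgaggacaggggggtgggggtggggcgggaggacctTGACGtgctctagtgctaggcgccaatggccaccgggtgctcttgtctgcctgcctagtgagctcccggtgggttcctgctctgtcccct
Pygl: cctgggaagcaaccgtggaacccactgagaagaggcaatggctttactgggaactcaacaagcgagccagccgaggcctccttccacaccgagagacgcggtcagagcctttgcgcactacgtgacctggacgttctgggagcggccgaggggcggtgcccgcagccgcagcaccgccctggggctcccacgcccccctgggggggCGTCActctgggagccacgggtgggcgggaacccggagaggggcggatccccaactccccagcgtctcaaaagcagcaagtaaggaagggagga
They are at chr19:36736555-36736854 (minus strand), chr13:35967656-35967955 (plus strand) and chr12:70227634-70227933 (minus strand) of GRCm38.p6. Ppp1r3c held an E-box whose first base is 104 bases before the start. Core motifs began 40 bases before the start of Ppp1r3g and 44 before that of Pygl. The Ppp1r3c and Pygl promoters lay in FAIRE peaks of all 3 groups, and the Ppp1r3g promoter itself lay in none.

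Of the 6 genes of glucose uptake and use, 3 were higher in both VSG mice than in both Sham mice. The share over all genes tested was 18.6%. Slc2a2, the glucose transporter GLUT2, stood at 45.7 and 34.2 FPKM in Control, 38.6 and 35.3 in Sham and 56.1 and 76.9 in VSG mice. Both VSG mice were above all 4 others, by 0.81 ± 0.27 against Sham (limma adjusted p = 0.942) and by 0.72 ± 0.27 against Control (0.507). Gckr, the regulatory protein that holds glucokinase in the nucleus, stood at 34.5 and 34.8, 21.5 and 26.3, and 37.3 and 51.0 FPKM. Its 3 groups did not overlap, with changes of 0.85 ± 0.25 in VSG against Sham and 0.32 ± 0.25 in VSG against Control (limma adjusted p = 0.942 and 0.727).

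Gpi1, glucose-6-phosphate isomerase, stood at 61.5 and 48.8 FPKM in Control, 60.6 and 41.4 in Sham and 62.3 and 79.4 in VSG mice, with both VSG mice highest. Khk, ketohexokinase, which starts fructose breakdown, stood at 252 and 177, 218 and 65.3, and 202 and 260 FPKM. Pfkl, the liver phosphofructokinase, stood at 8.66 and 8.04, 10.03 and 9.44, and 5.85 and 12.4 FPKM, and Sham lay above Control with VSG spanning both. Pfkfb1, which makes and breaks fructose 2,6-bisphosphate, stood at 7.65 and 5.17, 6.93 and 2.43, and 9.80 and 5.77 FPKM, with overlapping groups. The median change of the 6 was -0.31 in Sham against Control and 0.76 in VSG against Sham.

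The pyruvate dehydrogenase kinases, which shut off glucose oxidation, had their lowest mean in VSG mice. Pdk4 stood at 8.32 and 21.9 FPKM in Control, 2.30 and 10.3 in Sham and 2.38 and 2.52 in VSG mice. Both VSG mice lay below both Control mice, at a change of -2.08 ± 0.72 (limma adjusted p = 0.489), and within the span of the Sham mice, at -0.83 ± 0.72 (0.942). Pdk2 stood at 44.4 and 26.4, 40.7 and 20.4, and 15.3 and 32.6 FPKM, and its groups overlapped.

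**Figure D3:**
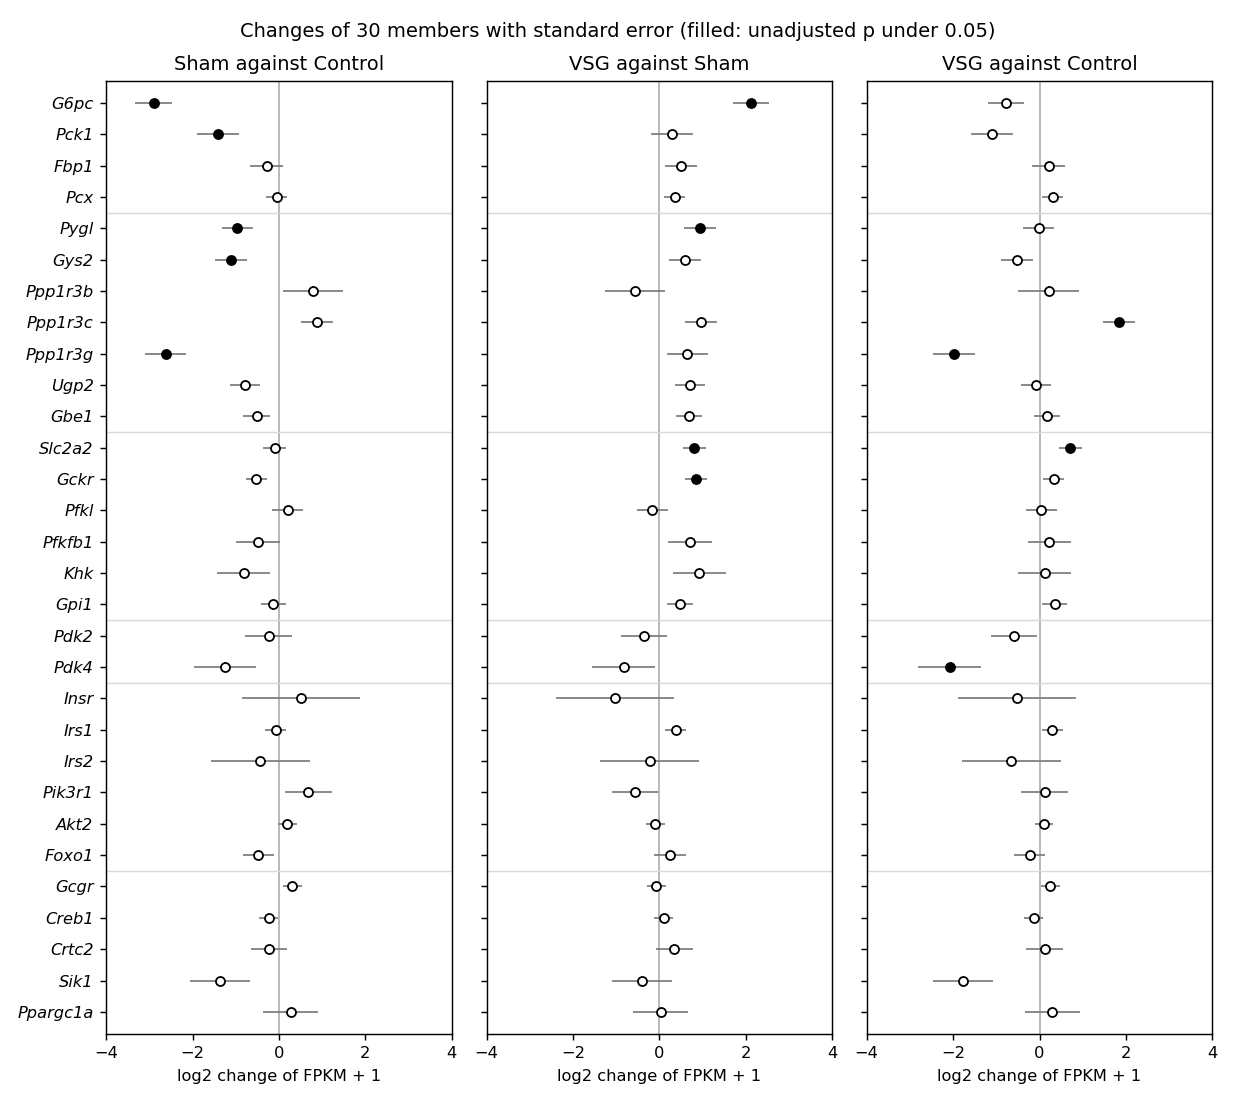
Change of each of the 30 tested members on the log2(FPKM + 1) scale with its standard error in 3 comparisons, grouped by role, with filled points where the unadjusted p was under 0.05. Filled points lie to the left in Sham against Control (5 members) and to the right in VSG against Sham (4 members), and none passed an adjusted p of 0.1.

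Of the 6 insulin signalling genes tested, 0 were under an unadjusted p of 0.05 in any comparison. The shares over all genes tested were 11% in Sham against Control, 4.86% in VSG against Sham and 9.58% in VSG against Control. Akt2, the kinase that carries the insulin signal in liver, stood at 23.9 and 29.5 FPKM in Control, 28.6 and 32.5 in Sham and 27.3 and 30.1 in VSG mice. Foxo1, the factor that insulin holds back, stood at 8.96 and 7.50, 4.88 and 6.44, and 4.75 and 9.69 FPKM, with both Sham mice below both Control mice. Irs1, the insulin receptor substrate, stood at 1.29 and 1.36, 1.30 and 1.11, and 1.56 and 2.21 FPKM, with both VSG mice highest.

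The other 4 could not be read with confidence. Insr, the insulin receptor, stood at 5.71 and 4.08 FPKM in Control and 12.3 and 4.24 in Sham, and was listed at 0 in VSG mouse 1 and at 15.7 in VSG mouse 2, for a fitted change of -1.03 ± 1.37 in VSG against Sham (limma adjusted p = 0.975). Irs2 was listed at 0 in replicate 1 of all 3 groups and at 5.52, 2.56 and 1.63 FPKM in replicate 2 of Control, Sham and VSG, a pattern that 14 genes tested shared and 14 showed in reverse. Pik3r1, the regulatory subunit of phosphoinositide 3-kinase, summed to 2.94 and 3.61, 10.1 and 3.20, and 2.63 and 4.89 FPKM. In Sham mouse 1 its whole value was assigned to the isoform NM_001024955, which was listed at 0 in the 5 other mice. Its changes of 0.68 ± 0.54 in Sham against Control and -0.56 ± 0.54 in VSG against Sham (limma adjusted p = 0.665 and 0.944) turned to -1.06 and 1.17 with the leading isoform alone. Foxo3 was listed at 1.07 FPKM in Sham mouse 1 and at 0 in all others.

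Of the glucagon and cAMP genes, the receptor Gcgr stood at 142 and 127 FPKM in Control, 181 and 153 in Sham and 152 and 166 in VSG mice. Both Sham and both VSG mice were above the Control mice, by 0.31 ± 0.22 for Sham (limma adjusted p = 0.635). Sik1, a kinase that glucagon induces and that restrains gluconeogenic transcription, stood at 12.3 and 23.0, 4.46 and 7.82, and 1.79 and 8.87 FPKM. All 4 mice on the high-fat diet were below both Control mice, by -1.77 ± 0.70 for VSG (limma adjusted p = 0.529).

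Creb1 stood at 1.84 and 1.79 FPKM in Control, 1.43 and 1.35 in Sham and 1.45 and 1.69 in VSG mice, with no overlap between groups but as a sum over 3 isoforms and near the FPKM filter. Crtc2, the coactivator of Creb1, stood at 6.26 and 5.94, 3.87 and 6.49, and 4.40 and 9.98 FPKM, with overlapping groups. Ppargc1a, the coactivator PGC-1alpha, stood at 0.881 FPKM and at a listed 0 in Control, 1.04 and 0.335 in Sham, and a listed 0 and 1.84 in VSG mice. The median changes of this group were -0.23 in Sham against Control and 0.030 in VSG against Sham.

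Of 142 other genes of these pathways, 115 were tested, and Tat was the only one past an adjusted p of 0.1. Tat, tyrosine aminotransferase, a glucagon- and glucocorticoid-induced enzyme of amino acid breakdown that is also among the hepatocyte markers, stood at 1376 and 1477 FPKM in Control, 210 and 188 in Sham and 233 and 283 in VSG mice. It fell by 2.84 ± 0.24 on the log2 scale in Sham against Control (limma adjusted p = 0.0447) and by 2.47 ± 0.24 in VSG against Control (0.0676). The Control mean was 7.17 times the Sham mean. Over the alternatives the adjusted p ran from 0.0269 to 0.475 for Sham and from 0.0402 to 0.575 for VSG. It missed the threshold in both comparisons without either Control mouse (0.299 and 0.475 for Sham, 0.426 and 0.575 for VSG) and without either VSG mouse (0.143 and 0.142 for Sham, 0.276 and 0.199 for VSG), fits that also have fewer mice to estimate the spread.

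At an unadjusted p under 0.05 other pathway genes numbered 16, 8 and 10 in Sham against Control, VSG against Sham and VSG against Control. These are 13.9%, 6.96% and 8.70% of the 115, against 11%, 4.86% and 9.58% of all genes tested. Got1, the cytosolic aspartate aminotransferase, stood at 138 and 166 FPKM in Control, 27.4 and 44.7 in Sham and 41.3 and 53.7 in VSG mice, a change of -2.08 ± 0.32 in Sham against Control (limma adjusted p = 0.168). Gyg, glycogenin, the primer of glycogen, stood at 2.04 and 1.67, 4.81 and 4.82, and 5.32 and 4.44 FPKM, with changes of 1.03 ± 0.22 and 1.04 ± 0.22 in Sham and VSG against Control (0.277 and 0.332). Eif4ebp1, the translation repressor 4E-BP1, stood at 52.6 and 47.3, 72.2 and 91.1, and 59.6 and 52.0 FPKM, a change of 0.69 ± 0.23 in Sham against Control (limma adjusted p = 0.404).

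After surgery, Pklr, the liver pyruvate kinase, stood at 117 and 74.1 FPKM against 30.2 and 43.9 in Sham and 63.2 and 41.3 in Control mice, a change of 1.33 ± 0.37 in VSG against Sham (limma adjusted p = 0.933). Socs3, a suppressor of cytokine and insulin signalling, stood at 10.8 and 3.79 FPKM in VSG, 18.6 and 31.8 in Sham and 20.6 and 13.4 in Control mice, a change of -1.75 ± 0.54 in VSG against Sham (limma adjusted p = 0.942). Rictor, a part of the kinase complex mTORC2, stood at 0.690 and 0.736 FPKM in VSG and at 1.66 and 2.75 in Sham mice. Control mice stood at 0.464 and 1.04 FPKM, on either side of the VSG mice. The change of Rictor in VSG against Sham was -0.88 ± 0.31 (limma adjusted p = 0.942). Galk1, galactokinase, stood at 37.9 and 51.1 FPKM in VSG, 42.9 and 29.6 in Sham and 23.3 and 18.4 in Control mice. Its change was 1.05 ± 0.30 in VSG against Control (limma adjusted p = 0.408), and the Sham and VSG mice overlapped. Pik3cb, a catalytic subunit of phosphoinositide 3-kinase, stood at 1.08 FPKM in Sham mouse 1 and a listed 0 in Sham mouse 2. VSG mice stood at 2.38 and 3.19 FPKM and Control mice at 3.19 and 3.33. Nr4a1, a nuclear receptor that cAMP induces, was listed at 0 in both VSG mice. It stood at 0.448 and 0.822 FPKM in Sham and 1.69 and 2.72 in Control mice. Nr4a1 met the FPKM filter through the Control mice alone, so a lower level in the other groups was built into its selection.

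Acute phase proteins, which inflammation raises in liver, had their highest sums in Sham mice. The 14 of 20 analysed here summed to 16637 and 17254 FPKM in Control, 37659 and 67655 in Sham and 28202 and 11840 in VSG mice. Of 13 tested, 0 passed an adjusted p of 0.1. At an unadjusted p under 0.05 they numbered 6, 3 and 4 in Sham against Control, VSG against Sham and VSG against Control. These are 46.2%, 23.1% and 30.8% of the 13, against 11%, 4.86% and 9.58% of all genes tested. The median log2 changes of the 13 were 1.21, -1.35 and 0.37. Haptoglobin (Hp), as an example, stood at 5340 and 5572 FPKM in Control, 14410.2 and 22141 in Sham and 11080 and 4459 in VSG mice. Of 13 clock genes tested, 0 passed, and their medians were -0.30, 0.26 and -0.55. Under an unadjusted p of 0.05 they numbered 3, 1 and 3, or 23.1%, 7.69% and 23.1% of the 13, beside the same shares of all genes tested. Dbp, an output gene of the clock, stood at 27.3 and 16.9, 40.4 and 17.1, and 48.2 and 68.8 FPKM. It was higher in VSG than in Control mice, a comparison in which 8 of the 13 clock genes were lower and 5 higher. The part of inflammation or of the hour of collection in the levels of the glucose genes was not tested.

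FAIRE peaks were deposited as 1 list for each group, pooled over its 2 mice, so they carry no error and no test. A peak within 1000 bp of a coding start (NCBIM37, gencode vM1) was present for 30 of the 31 members in the Control list, for 29 in the Sham list and for 30 in the VSG list. Of 8636 genes tested with an annotated start, 89.2%, 88.7% and 90.1% had one. Slc2a2 had no such peak in any list. Ppp1r3g had one in Control (chr13:36059990-36060548) and VSG (chr13:36060091-36060886) and none in Sham, on the 3' side of its start, 268 and 369 bp away. Peaks in Control and not in Sham were listed for 182 genes (2.11%). With a window of 5000 bp every member had a peak in all 3 lists.

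The signal of a peak was read only as its percentile within its own list, because the scaling between groups is not stated. The lists differ in length (42204, 52881 and 44539 peaks for Control, Sham and VSG). Percentiles, and the orders of the groups drawn from them below, still depend on that length. The strongest start peak of the members lay at a median percentile of 83.7 for Control, 89.5 for Sham and 88.0 for VSG, and that of all genes tested at 86.1, 85.7 and 87.7. G6pc stood at the 74.1th percentile in Control, the 91.5th in Sham and the 68.6th in VSG mice. Gys2 stood at 55.2, 83.0 and 62.6, Gckr at 76.1, 89.4 and 74.8 and Pck1 at 91.4, 97.4 and 87.8. These genes were chosen after their values were seen, and the members as a whole showed no one order. Of the 29 members with a start peak in all 3 lists, the peak ranked highest in the Sham list for 9, lowest for 10 and between the others for 10. Among the 16 of them whose mean FPKM was lowest in Sham mice, these counts were 5, 7 and 4. These counts take the strongest peak near any start of a gene, so they can compare different peaks. Pygl, for example, stood at 93.4, 89.7 and 93.5, but its strongest Sham peak lay near another start. Near the start of the Control and VSG peaks the strongest Sham peak stood at 86.0, lowest of the 3 lists. Near the other start the strongest peaks stood at 65.2, 89.7 and 64.5, highest in Sham.

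**Figure D4:**
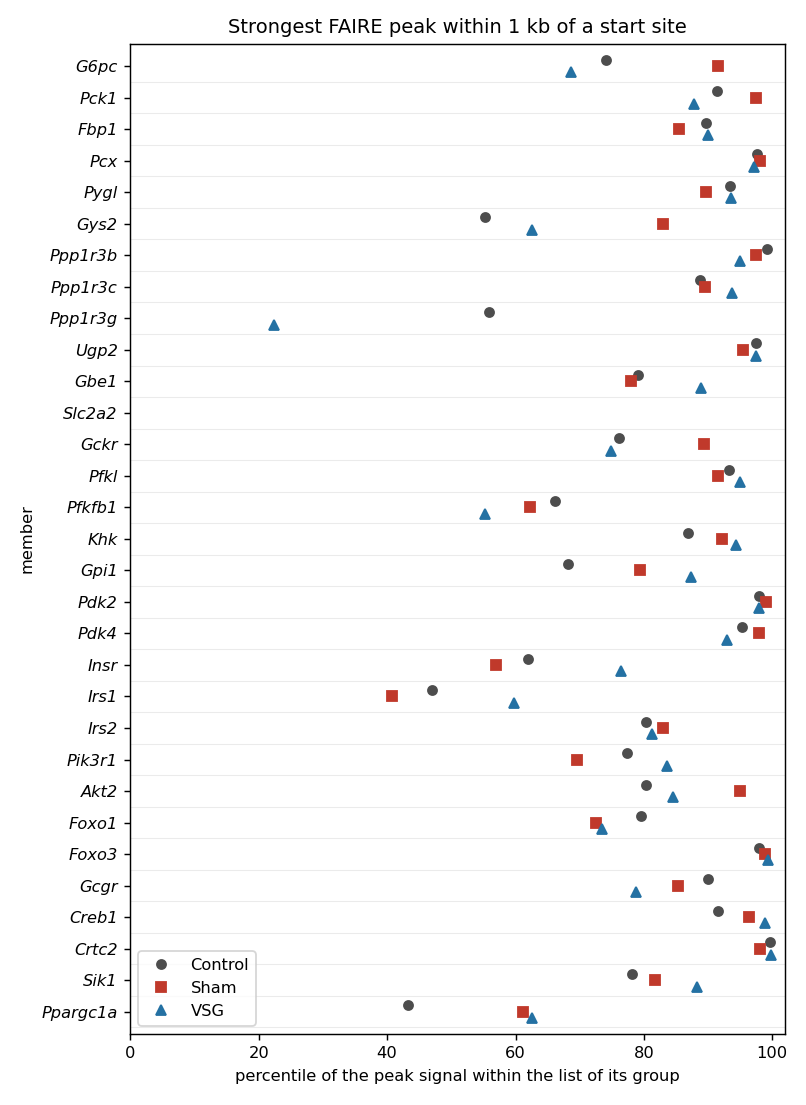
Percentile of the strongest FAIRE peak within 1 kb of a start site among all peaks of its list, for each member and group, with no symbol where the list held no such peak. Slc2a2 has no symbol and Ppp1r3g none for Sham, and among the other 29 members the Sham symbol is farthest to the right for 9 and farthest to the left for 10.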

How the data were processed

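RNA-seq and FAIRE-seq were each deposited for 2 mice in each of 3 groups. FPKM values per RefSeq transcript and mouse were computed by the authors with Cufflinks after TopHat2 alignment to mm9. The labels give poly(A) enrichment and the paper's methods ribosomal depletion. FAIRE peaks and their signal come from F-seq as run by the authors on bowtie1 alignments to mm9, with IDR between both mice deciding which peaks stayed. The authors' comparison tables (DESeq2 fold changes and p-values) and variable site lists hold their own findings and were not used.

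Of 34933 transcripts, 34610 matched a gene, and FPKM was summed per gene. log2(FPKM + 1) was fitted with limma 3.58.1 (R 4.3.3), all 3 groups together, with a variance trend, for genes that reached an FPKM of 1 in 2 or more mice. Tests were 2-sided with Benjamini-Hochberg adjustment over 9769 genes at an FDR of 10%. The labels do not name separate cohorts, so p-values measure only the spread between these mice, and an exact permutation test of 2 against 2 mice cannot reach 0.05. The fit was checked on simulated data with normal noise, large planted changes and no failed estimates of 0. Its power for smaller changes was not checked. Named changes are those of the 4 members and 2 other pathway genes with the smallest unadjusted p in each direction of each comparison, and of any past the adjusted p of 0.1. The members and lists were chosen with earlier results of these data known. Replicate numbers were not used to pair the mice in the main fit. Alternatives are in the closing section. Python 3.11.15, pandas 2.3.3 and pysam 0.24.0 were used for peaks and promoters, whose RefSeq letters (GRCm38.p6) were each found once in NCBIM37.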

Additional observations from a re-analysis of the deposited data

How the results depend on the processing

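Under 15 alternatives no member passed an adjusted p of 0.1 in any comparison, so the absence of calls did not depend on a setting, but with 2 mice a group it shows no absence of change. Of 36 named changes, 30 kept their sign throughout. The cause of the others was not tested: in VSG against Sham and without 1 mouse in turn, Pdk4 ran from -1.72 to 0.064, Ppp1r3b from -1.23 to 0.084, Insr from -3.06 to 1.0 and Pik3r1 from -1.26 to 0.14, the sign turning without Sham replicate 2, VSG replicate 2, VSG replicate 1 and Sham replicate 1, respectively. Pik3r1 in Sham against Control ran from -0.024 without Sham replicate 1 to 1.38. With the leading isoform alone Pik3r1 was 1.17 in VSG against Sham and -1.06 in Sham against Control. Pcx in VSG against Control was -0.32 with the leading isoform alone.

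Calls over all genes were 5 in VSG against Sham, 30 in Sham against Control and 28 in VSG against Control. VSG against Sham gave 8 with a pseudocount of 0.1, 1 with a pseudocount of 5 and 0 with only 2 groups in the fit, and Sham against Control gave 62 with no filter. Leaving out 1 mouse gave 0 to 51, 0 to 158 and 0 to 34 calls, with 0 in all 3 comparisons without either Control replicate and the highest counts without Sham replicate 2. A lone mouse was then assumed to vary like the other groups. Members under an unadjusted p of 0.05 numbered 2 to 5, 2 to 5 and 2 to 6, and members with a higher mean in VSG than Control 10 to 20, against 17.

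Replicate numbers are shared between groups, and deviations of mice with the same number correlated at 0.106, 0.058 and 0.029. These values are low but cannot exclude that the number pairs the mice. With the replicate block the fit called 0, 9 and 10 genes in VSG against Sham, Sham against Control and VSG against Control, and 4, 8 and 6 members were under an unadjusted p of 0.05. The peak alternative that uses the start of the leading isoform alone was not run, since the annotation does not pair RefSeq isoforms with starts. Depth per mouse is not known from FPKM.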
